A study of Xenopus tropicalis with 6 samples.

Results

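Proneural and early neuron differentiation factors are the transcription factors that take a dividing neural progenitor toward becoming a neuron. The 9 genes described here are *neurog1*, *neurog2*, *neurod1*, *neurod4*, *atoh1*, *insm1*, *myt1*, *sox4* and *sox11*. They were picked by gene symbol from the 34229 deposited gene models, and each symbol matched 1 model. All 9 were among the 15076 models tested, which are those with more than 1 cpm (a count scaled to a common library size) in at least 3 libraries, and 12509 of the tested models carry a symbol. The bHLH factors Neurog1, Neurog2 and Atoh1 start neuronal commitment in different progenitor domains of the vertebrate brain, and the related factors Neurod1 and Neurod4 act downstream of them. The zinc finger proteins Insm1 and Myt1 and the SoxC proteins Sox4 and Sox11 act in cells that are leaving the progenitor state or have just become neurons. Many of these RNAs are transient, and a level in whole brain does not show which cells they come from.

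RNA was measured in brains of stage 46 *Xenopus tropicalis* tadpoles, in 3 *dyrk1a* CRISPR libraries and 3 control libraries of 3 pooled brains each. *dyrk1a* encodes a protein kinase. The animals used were wild type, and the control libraries are labelled WT. The *dyrk1a* CRISPR embryos received guide RNA and Cas9 on both sides. The controls were not injected, so *dyrk1a* mutation and injection cannot be told apart. By the methods of the study, the CRISPR brains were those with the most mutated carcasses, and the injected animals themselves were used, which carry a mix of alleles.

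The targeted gene *dyrk1a* had a mean of 15.01 ± 1.80 cpm over the CRISPR libraries, against 15.7 ± 5.37 cpm over the controls (SD, n = 3 each), a log2 fold change of -0.07 ± 0.24 (SE; edgeR adjusted p = 0.936). Another model, *dyrk1a.2*, had 28.6 ± 3.71 cpm in CRISPR brains, against 28.1 ± 1.31 cpm in control brains (SD), a log2 fold change of 0.02. Which of these models holds the guide site was not tested. Small insertions and deletions need not change a transcript count, so these levels are no check of the labels. The study itself reported a loss of read depth beside the guide site in all 3 injected replicates and not in the controls. Gene counts summed to between 21564980 and 28100633 in CRISPR libraries and to between 9603583 and 35071943 in control libraries, with control replicate 3 the shallowest. The lowest count of any of the 9 genes was 75, for *atoh1* in that library, where counting error alone is 11.5%. On the first principal component, which held 35.1% of the variance, CRISPR replicates 1, 2 and 3 were at -8.77, -3.02 and -41.5. Control replicates 1, 2 and 3 were at 0.817, 30.5 and 22.1. All CRISPR libraries thus lay below all controls, with CRISPR replicate 3 the lowest, but CRISPR replicate 2 and control replicate 1 were close together. On the second component (22.1% of the variance) CRISPR replicates 1, 2 and 3 were at 23.6, 20.7 and -9.27. Control replicates 1, 2 and 3 were at -29.7, 2.94 and -8.22 there, so CRISPR replicate 3 lay among the controls.

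Of the 9 genes, 8 had a higher fitted level in *dyrk1a* CRISPR brains than in control brains, and 51.9% of all tested genes had a positive fold change. In 6 of the 9 (*neurog1*, *neurod4*, *atoh1*, *myt1*, *sox4* and *sox11*) every CRISPR library lay above every control library, a pattern seen in 9.13% of all tested genes, and in none of the 9 did every CRISPR library lie below, against 9.72% of all tested genes. The median log2 fold change of the 9 was 0.40, and that of all tested genes was 0.01. The differences were modest in size, between 0.915-fold for *neurod1* and 1.62-fold for *myt1*. None of the 9 passed an adjusted p of 0.05 with the edgeR quasi-likelihood test and Benjamini-Hochberg adjustment over all tested genes, where the background was 0% called higher and 0.00663% called lower. At an unadjusted edgeR p under 0.05, 5 of the 9 were higher (*neurog1*, *atoh1*, *myt1*, *sox4* and *sox11*), against 6.79% of all tested genes, and none was lower, against 6.14%. Leaving out CRISPR replicate 2 lowered that count to 3, against 7.39% of all tested genes in the same fit, and leaving out control replicate 2 lowered it to 3, against 4.66%. It was 5, against 5.58%, when CRISPR replicate 3, the lowest library on the first principal component, was left out. DESeq2 called 2 of the 9, *myt1* and *sox4*, both higher, against 1.15% of all tested genes. In bulk brain, more cells of a type and more RNA per cell cannot be told apart.

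**Figure D1:**
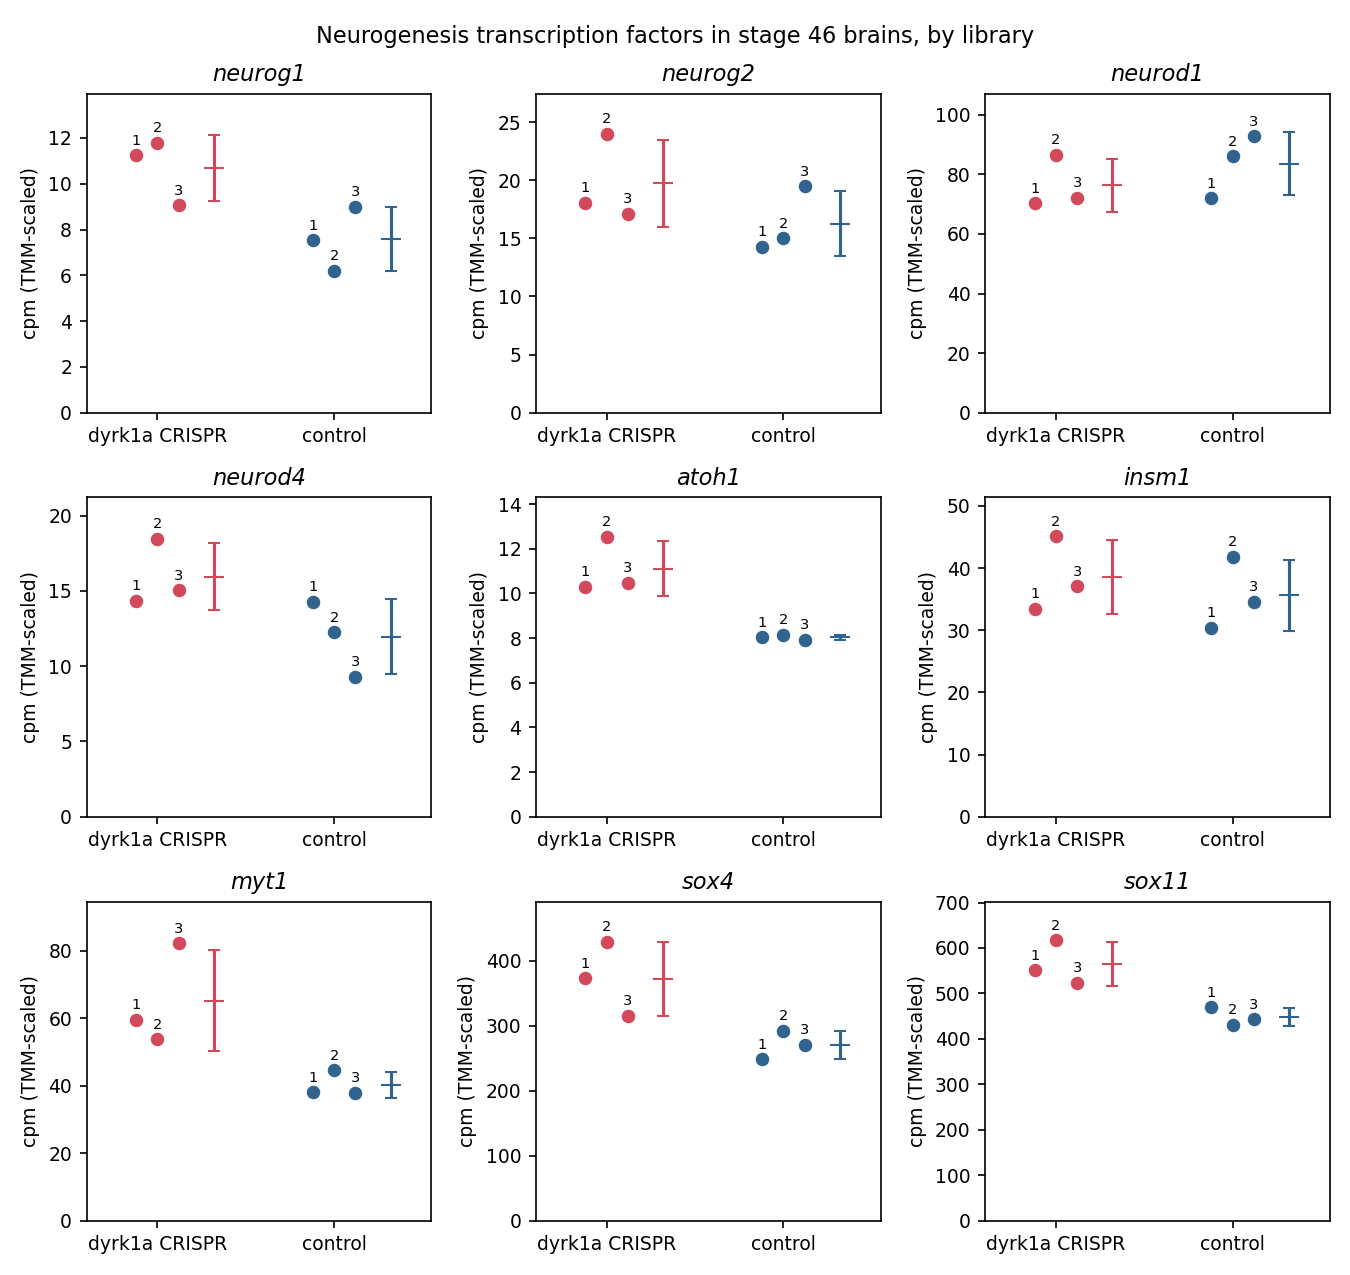
Level of each of the 9 genes in cpm with TMM-scaled library sizes (edgeR's correction for library composition), in 3 *dyrk1a* CRISPR libraries (left, red) and 3 control libraries (right, blue), with replicate numbers at the points and mean ± SD beside them. The groups do not overlap for 6 genes, of which *neurog1* and *neurod4* are separated by very little, and they overlap for *neurog2*, *neurod1* and *insm1*.

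The SoxC factors had the highest counts of the 9 genes and the smallest standard errors. Sox4 and Sox11 are closely related activators that switch on pan-neuronal genes such as tubulins in newborn vertebrate neurons. *sox4* (model gene5950) had 373, 430 and 315 cpm in CRISPR replicates 1, 2 and 3, against 249, 292 and 271 cpm in control replicates 1, 2 and 3. Every CRISPR library was above every control library, with CRISPR replicate 3 the nearest to the controls. Here and for the other genes, cpm values use TMM-scaled library sizes and stand in the order of replicates 1, 2 and 3. The difference was 1.38-fold, a log2 fold change of 0.46 ± 0.12 (SE), with an adjusted p of 0.169 in edgeR and 0.0492 in DESeq2. With 1 library left out at a time, the DESeq2 call of *sox4* held only without CRISPR replicate 3 (adjusted p = 0.00695).

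*sox11* (model gene7652) had 551, 618 and 524 cpm in CRISPR brains, against 470 (replicate 1), 431 and 444 cpm in control brains. All CRISPR values were above all control values, and the gap between the groups was wider than the spread of the controls. The mean was 564 ± 48.2 cpm for CRISPR, against 448 ± 19.7 cpm for control (SD, n = 3 each). The log2 fold change was 0.33 ± 0.09 (SE), with an adjusted p of 0.187 in edgeR and 0.102 in DESeq2. Leaving out single libraries gave edgeR log2 fold changes of 0.26 to 0.38 for *sox11*, a narrow range, and of 0.34 to 0.57 for *sox4*.

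The zinc finger gene *myt1* (model gene26244), whose product in *Xenopus* works with bHLH factors to make cells insensitive to Notch inhibition, showed the largest fold change of the 9 with all libraries. It had 59.5, 53.8 and 82.1 cpm in CRISPR brains, against 38.1, 44.5 and 37.9 cpm in control brains. All CRISPR libraries were above all controls, and CRISPR replicate 3 was far above the other CRISPR libraries. The log2 fold change was 0.70 ± 0.16 (SE), with an adjusted p of 0.130 in edgeR and 0.0104 in DESeq2, and *myt1* stood at place 192 of 15076 genes by edgeR p. With 1 library left out at a time, DESeq2 kept the call in 4 of 6 cases and lost it without CRISPR replicate 3 and without control replicate 3. The edgeR log2 fold change in these fits lay between 0.49 and 0.81. The lowest was without CRISPR replicate 3, where *neurog1* (0.62), *sox4* (0.57) and *atoh1* (0.50) were above *myt1* (0.49), so its place as the largest rests on that library.

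The exon bins of *myt1* (the annotated exons, cut where transcripts differ) showed where the reads of CRISPR replicate 3 lay. Its model has 22 bins, and bin 1 held 38.0%, 33.8% and 59.5% of all *myt1* bin counts in CRISPR replicates 1, 2 and 3, and 39.1%, 36.2% and 36.8% in control replicates 1, 2 and 3. CRISPR replicate 3 was thus the only library in which this bin held most of the bin counts. The shares of the groups overlapped (two-sided exact permutation p = 0.8). Libraries had 1.35 to 1.68 *myt1* bin counts per *myt1* gene count, so bin counts are not counts of separate reads. On the cpm scale of the gene counts, bin 1 had 37.3, 30.4 and 66.02 in CRISPR brains, against 23.8, 27.04 and 22.8 in control brains, which do not overlap. Bins 2 to 22 together had 60.98, 59.7 and 44.9 in CRISPR brains, against 37.2, 47.7 and 39.2 in control brains. Here the groups overlapped, since CRISPR replicate 3 was below control replicate 2, and the mean was 55.2 ± 8.94 for CRISPR, against 41.4 ± 5.58 for control (SD, n = 3 each). With *myt1* counted over bins 2 to 22 alone, a choice made after its values were seen, the log2 fold change was 0.42 ± 0.15 (SE), with an adjusted p of 0.312 in edgeR and 0.216 in DESeq2. In CRISPR replicate 1 these bins held 1739 counts, against 1698 gene counts of *myt1*. Such sums can hold a read more than once, so these values are not those of separate reads outside bin 1. What the extra bin 1 reads of CRISPR replicate 3 are was not tested, nor at which end of the transcript bin 1 lies.

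**Figure D2:**
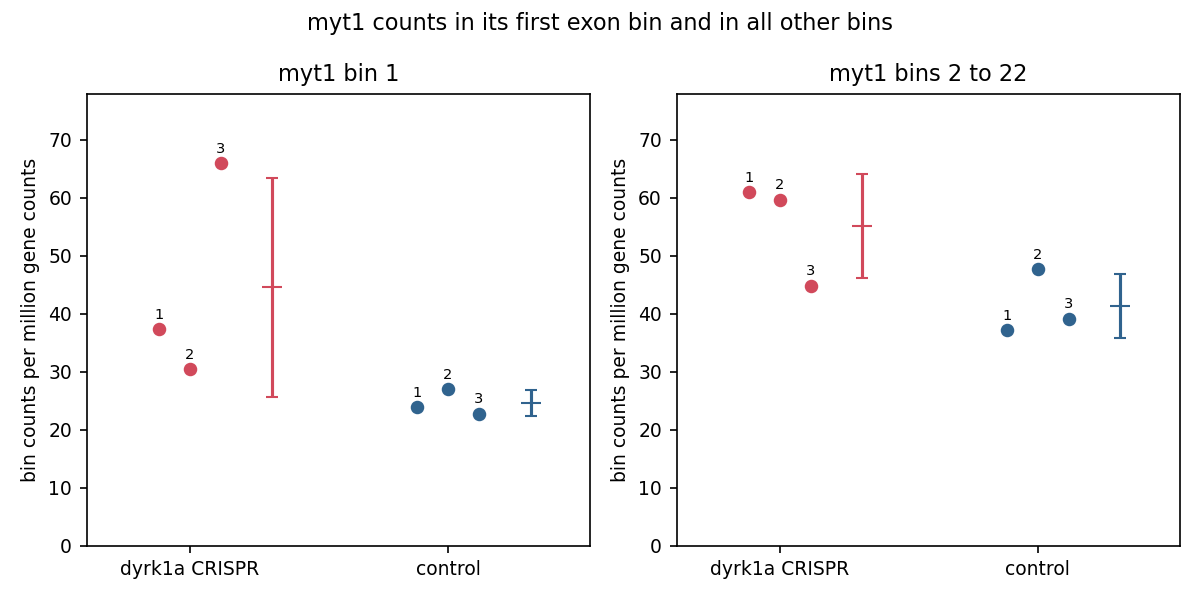
Counts of *myt1*, scaled to cpm of the gene counts, in its exon bin number 1 (left panel) and in bins 2 to 22 summed (right panel), for 3 *dyrk1a* CRISPR libraries (red) and 3 control libraries (blue), with mean ± SD. CRISPR replicate 3 is the highest library in bin 1, at 66.02, and the lowest CRISPR library over bins 2 to 22, at 44.9.

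The early proneural bHLH genes had fewer reads. Atoh1 marks the progenitors of the rhombic lip, which form cerebellar granule neurons and other dorsal hindbrain neurons in vertebrates. *atoh1* (model gene25639) had 10.3, 12.5 and 10.5 cpm in CRISPR brains, against 8.04, 8.15 and 7.94 cpm in control brains. The 3 control values were nearly equal, and all CRISPR values lay above them. The difference was 1.38-fold, a log2 fold change of 0.46 ± 0.18 (SE), with an adjusted p of 0.319 in edgeR and 0.271 in DESeq2. Of 8 tested markers of the rhombic lip and granule neuron lineage, 2 had positive fold changes, and summed they had 864 to 924 cpm in CRISPR brains, against 937 to 949 cpm in control brains.

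*neurog1* (model gene2151), which directs sensory and other glutamatergic neuron fates, had 11.3, 11.8 and 9.07 cpm in CRISPR brains, against 7.54, 6.20 and 8.99 cpm in control brains. The groups did not overlap, but CRISPR replicate 3 and control replicate 3 were almost level. The log2 fold change was 0.51 ± 0.21 (SE), with an adjusted p of 0.343 in edgeR and 0.278 in DESeq2. *neurog2* (model gene4227), a related gene with a wide role in cortical and spinal neurogenesis in mouse, had 18.1, 24.0 (replicate 2) and 17.1 cpm in CRISPR brains, against 14.3, 15.02 and 19.5 cpm in control brains. The groups overlapped because control replicate 3 was above CRISPR replicates 1 and 3, and without that control all CRISPR libraries were above the others. Its log2 fold change was 0.29 ± 0.19 (SE; edgeR adjusted p = 0.541).

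The NeuroD factors, which act after the neurogenins, differed in direction. *neurod4* (model gene220), expressed in *Xenopus* as cells commit to a neuronal fate, had 14.34, 18.5 and 15.04 cpm in CRISPR brains, against 14.30, 12.3 and 9.31 cpm in control brains. The groups did not overlap, although CRISPR replicate 1 and control replicate 1 differed by less than counting error. The log2 fold change of *neurod4* was 0.40 ± 0.19 (SE; edgeR adjusted p = 0.421). *neurod1* (model gene5325), which drives terminal differentiation and stays on in young granule neurons of the mouse cerebellum, had 70.3, 86.7 and 72.2 cpm in CRISPR brains, against 71.95, 86.1 and 92.9 cpm in control brains. The groups overlapped throughout, and the log2 fold change was -0.13 ± 0.13 (SE; edgeR adjusted p = 0.723). *neurod1* was the only one of the 9 genes with a negative value, and that sign held without each library in turn (-0.23 to -0.05).

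*insm1* (model gene19660), whose product promotes the step from apical progenitor to basal progenitor and neuron in mouse, had 33.5, 45.1 and 37.1 cpm in CRISPR brains, against 30.4, 41.8 and 34.6 cpm in control brains. The groups overlapped, and replicate 2 was the highest library of each group. The log2 fold change was 0.11 ± 0.16 (SE; edgeR adjusted p = 0.809), and it was -0.015 without CRISPR replicate 2.

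**Figure D3:**
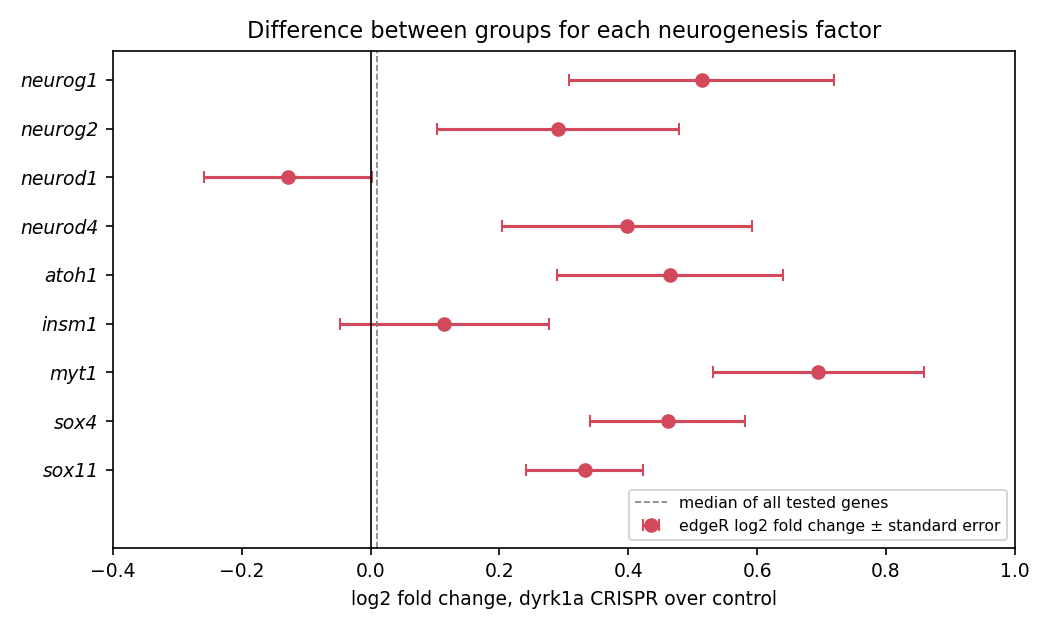
edgeR log2 fold change, *dyrk1a* CRISPR over control (3 libraries each), with its standard error, for the 9 genes from top to bottom, and the median of all tested genes (0.01, dashed line). *myt1* is the farthest to the right at 0.70, and *neurod1* alone is left of 0, at -0.13.

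The relation of the other 8 genes to *neurod1* within a library does not depend on library size. *neurod1* was taken as the denominator after the values had been seen, so the ratios are a description. Per 100 *neurod1* reads there were 14.7, 14.5 and 14.5 *atoh1* reads in CRISPR brains, against 11.2, 9.47 and 8.54 in control brains. For *neurog1* the ratio was 16.01, 13.6 and 12.6 in CRISPR brains, against 10.5, 7.20 and 9.68 in control brains. The CRISPR libraries were thus above the controls for both, with the *atoh1* ratio almost the same in all 3 CRISPR libraries. For *neurog2*, which overlapped as a level, the ratio was 25.7, 27.7 and 23.7 in CRISPR brains, against 19.8, 17.4 and 20.96 in control brains, with no overlap. For *sox4* it was 530.3, 496 and 437 in CRISPR brains, against 345, 339.7 and 292 in control brains. In 7 of the 8 genes every CRISPR ratio was above every control ratio, against 10.4% of all tested genes, and in none was every CRISPR ratio below, against 2.36%. *insm1* was the exception. Of the 7, 6 did not overlap as levels either. *neurog2* was the other, and *neurod1* was highest in control replicate 3, at 92.9 cpm. As *neurod1* alone of the 9 genes had a negative fold change, these counts add no support to the levels. The mean log2 ratio was higher in CRISPR brains by 0.25 for *insm1* to 0.81 for *myt1*.

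**Figure D4:**
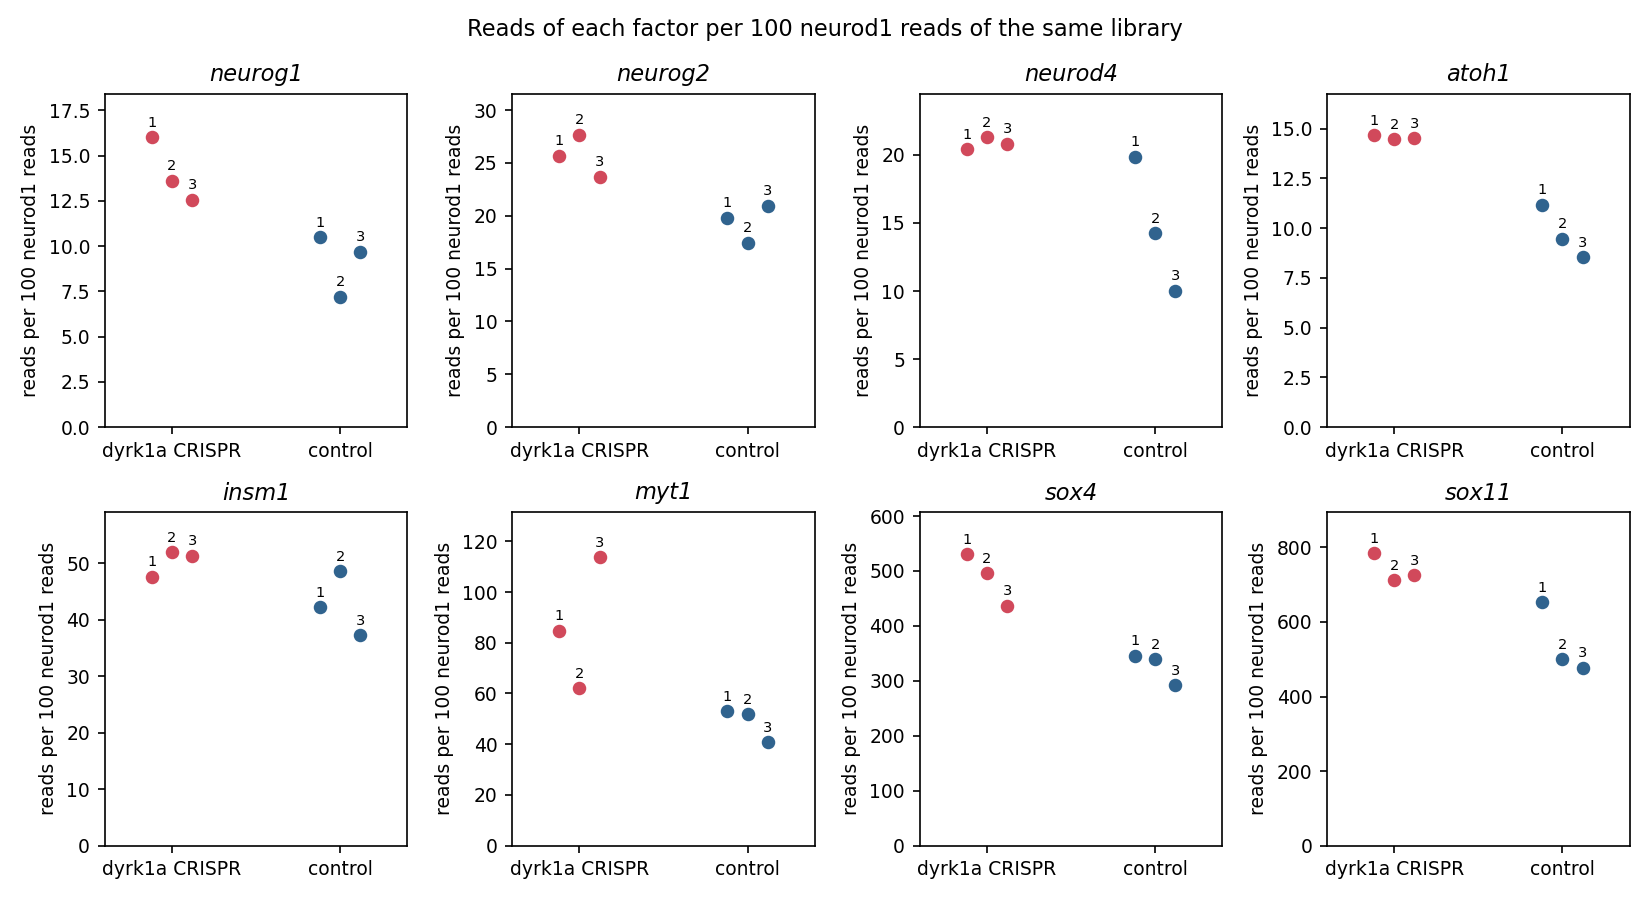
Reads of each of the other 8 genes per 100 *neurod1* reads of the same library, in 3 *dyrk1a* CRISPR libraries (red) and 3 control libraries (blue), with replicate numbers at the points. The CRISPR libraries are above the controls in 7 panels, and for *insm1* control replicate 2 (48.6) is above CRISPR replicate 1 (47.6).

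Exon usage of the 9 genes gave no call. The 9 models hold 45 exon bins, of which 43 were tested, since *atoh1* and *insm1* have 1 bin each and no usage to compare. None of the 43 passed in edgeR (diffSpliceDGE, adjusted p under 0.05), where the background was 0% of 214537 bins, and 1.07% of those had an unadjusted p under 0.05. Of the 43, 1 did, bin 18 of *myt1*. As a share of its gene, bin 3 of *sox4* had 7.59%, 7.17% and 6.94% in CRISPR brains, against 5.98%, 6.32% and 6.53% in control brains. Its groups did not overlap (two-sided exact permutation p = 0.1, the smallest that 3 against 3 libraries allow), and the edgeR usage test gave an unadjusted p of 0.264. Bins 1 and 2 of *sox4* had every CRISPR share below every control share. In all, 2 of the 43 bins had every CRISPR share above every control share and 2 had it below, against 3.96% and 4.39% of all tested bins. None of the 574 models that merge overlapping genes holds any of the 9.

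Genes that work with, against or after the proneural factors were read from the same fit in 6 lists with 74 tested models. Among them 45 had positive and 29 negative fold changes, with a median of 0.06, and none passed in edgeR. Positive fold changes made up 51.9% of all tested genes, the share to set beside each list. At an unadjusted edgeR p under 0.05, 15 were higher, against 6.79% of all tested genes, and 1 was lower, against 6.14%. The higher count was 8 without CRISPR replicate 3, against 5.58% of all tested genes, and 8 without control replicate 3, against 4.89%. The lower count ran between 0 and 3 without single libraries. DESeq2 called 4, all higher, against 1.15% of all tested genes.

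Among other neural bHLH genes, 9 of 10 tested models had positive fold changes, and the median was 0.20. *nhlh1*, a bHLH gene of newborn neurons, had 154, 185 and 178 cpm in CRISPR brains, against 146, 136 and 135 cpm in control brains, with no overlap (log2 fold change 0.31 ± 0.10 SE, edgeR adjusted p = 0.267). *bhlhe22*, active in differentiating neurons, had a log2 fold change of 0.37 ± 0.16 (SE; edgeR adjusted p = 0.359). The exception was *olig4*, a low gene of the oligodendrocyte factor family, with 0.561, 0.655 and 0.611 cpm in CRISPR brains, against 1.08, 0.998 and 1.38 cpm in control brains (log2 fold change -0.88 ± 0.39 SE, edgeR adjusted p = 0.374). *olig4* passed the 1 cpm filter, which uses unscaled library sizes, only through its control libraries. Of the E-proteins, the shared dimer partners of proneural factors, *tcf4* had a log2 fold change of 0.55 ± 0.27 (SE; edgeR adjusted p = 0.431) and *tcf3* one of 0.34 ± 0.45. *tcf12* had -0.01, or 0.019 with limma on the deposited log2 values, and none of the 3 had an unadjusted p under 0.05 in the main edgeR fit. The unadjusted p of *tcf4* was under 0.05 in DESeq2, in limma, and in edgeR without a filter or with the replicate number as a block.

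Antagonists of the proneural factors are mainly Hes repressors downstream of Notch and Id proteins that sequester E-proteins. They had 13 positive fold changes in 16 tested models with a median of 0.29. At an unadjusted edgeR p under 0.05, 7 were higher, against 6.79% of all tested genes. Models with a *hes5* symbol made up 7 of the 16 and 6 of the 7 that were higher, and *hes1* was the other. The Id genes *id2* (0.02), *id3* (0.20) and *id4* (-0.01) had small log2 fold changes, and *hey2* had all CRISPR libraries below all controls (-0.51 ± 0.23 SE, edgeR adjusted p = 0.394). *hes5.4* had 24.5, 29.3 and 37.3 cpm in CRISPR brains, against 18.8, 12.1 and 16.6 cpm in control brains. Its CRISPR libraries were all above its controls, with a log2 fold change of 0.94 ± 0.21 (SE; adjusted p = 0.118 in edgeR and 0.00260 in DESeq2). *hes5.2* had 172, 179 and 223 cpm in CRISPR brains, against 148, 135 and 126 cpm in control brains (log2 fold change 0.49 ± 0.12 SE, adjusted p = 0.152 in edgeR and 0.0351 in DESeq2), and *hes5.7* had a log2 fold change of 0.52 ± 0.17 (SE; edgeR adjusted p = 0.267). These models share the *hes5* symbol with numbered endings, and whether reads were split between them was not tested. The 7 tested *hes5* models summed to 333, 368 and 470.0 cpm in CRISPR brains, against 303, 257 and 251 cpm in control brains. The sums did not overlap, and the log2 fold changes of all 7 models were positive, between 0.38 and 0.94. *hes1*, another Notch target, had 64.9, 60.2 and 74.2 cpm in CRISPR brains, against 52.5, 47.8 and 50.7 cpm in control brains (log2 fold change 0.40 ± 0.12 SE, edgeR adjusted p = 0.220).

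Of the genes that act with or after proneural factors, 10 of 15 had positive fold changes. *hes6.2*, a model of the Hes gene that in *Xenopus* is induced by proneural factors and promotes neurogenesis, had 27.7, 37.8 and 41.4 cpm in CRISPR brains, against 21.5, 18.6 and 21.2 cpm in control brains. Every CRISPR library was above every control, with a log2 fold change of 0.80 ± 0.17 (SE; adjusted p = 0.112 in edgeR and 0.00243 in DESeq2). *myt1l*, the relative of *myt1* kept on in postmitotic neurons, lay the other way, with 126, 150.5 and 139 cpm in CRISPR brains, against 154, 168 and 162 cpm in control brains. All its CRISPR libraries were below its controls (log2 fold change -0.22 ± 0.10 SE, edgeR adjusted p = 0.389). *gadd45g* (0.30 ± 0.13) and *hes6.1* (0.27 ± 0.11, SE) had positive log2 fold changes with edgeR adjusted p of 0.357 and 0.344.

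Other Sox genes of the neural lineage divided into 6 positive and 5 negative fold changes. The SoxB1 gene *sox3*, which holds cells in the progenitor state and is counteracted by proneural factors in chick, had 267, 269 and 237 cpm in CRISPR brains, against 212, 201 and 198 cpm in control brains, with no overlap (log2 fold change 0.34 ± 0.09 SE, edgeR adjusted p = 0.179). *sox6*, of the SoxD group, had 5.65, 9.87 and 5.40 cpm in CRISPR brains, against 8.79, 11.5 and 10.69 cpm in control brains, which overlap (log2 fold change -0.56 ± 0.26 SE, edgeR adjusted p = 0.392). The SoxB1 gene *sox1* had a log2 fold change of 0.18 ± 0.12 (SE; edgeR adjusted p = 0.568). *sox2*, also SoxB1, had a log2 fold change of 0.19 ± 0.10 (SE; edgeR adjusted p = 0.436). Products of young neurons had 5 positive and 14 negative fold changes, with a median of -0.06. The tubulin gene *tubb2b* had 891, 908 and 1039 cpm in CRISPR brains, against 742, 648 and 735 cpm in control brains, with no overlap (log2 fold change 0.42 ± 0.09 SE, adjusted p = 0.122 in edgeR and 0.0328 in DESeq2). *tubb3*, the neuronal beta-tubulin, had 568, 559.9 and 715 cpm in CRISPR brains, against 523, 505 and 501 cpm in control brains (log2 fold change 0.27 ± 0.10 SE, edgeR adjusted p = 0.334). The microtubule regulator gene *stmn1* had a log2 fold change of 0.44 ± 0.20 (SE; edgeR adjusted p = 0.394), with overlap. These 3 positive genes are the minority of their list. The RNA-binding protein genes *celf4* (-0.26 ± 0.14 SE, edgeR adjusted p = 0.448) and *elavl4* (-0.15 ± 0.09 SE, edgeR adjusted p = 0.498) had negative log2 fold changes, and for *elavl4* all CRISPR libraries were below all controls.

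**Figure D5:**
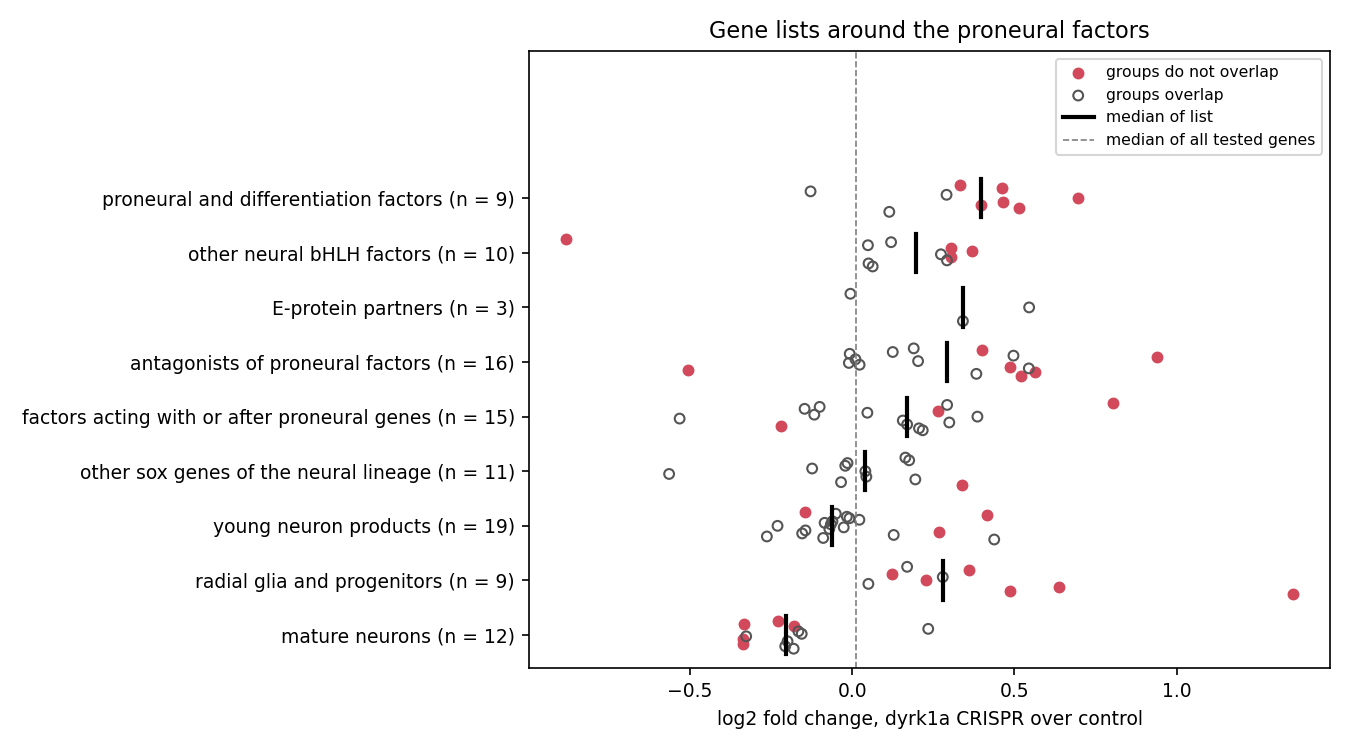
edgeR log2 fold changes, *dyrk1a* CRISPR over control (3 libraries each), of the 9 proneural and differentiation factors, the 6 lists of related genes and 2 marker lists. Points are gene models, filled where the 2 groups of libraries do not overlap, short bars are list medians, and the dashed line is the median of all tested genes. The median of the 9 factors is 0.40, that of mature neuron markers is -0.20, and that of progenitor markers is 0.28.

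Marker lists of other cell types were read beside these genes. Positive fold changes made up 51.9% of all tested genes. Summed markers of mature neurons had 7899 to 8147 cpm in CRISPR brains, against 9498 to 9621 cpm in control brains, and 11 of 12 had negative fold changes. Summed markers of radial glia and progenitors had 3840 to 4426 cpm in CRISPR brains, against 2869 to 3668 cpm in control brains, and all 9 tested had positive fold changes (*gfap* was not among the tested symbols). Telencephalon markers had 758 to 819 cpm in CRISPR brains, against 726 to 808 cpm in control brains, and Hox genes of the hindbrain and spinal cord had 191 to 259 cpm in CRISPR brains, against 217 to 282 cpm in control brains. Within the Hox list *hoxc6*, a posterior gene, had 0.351, 0.175 and 0.423 cpm in CRISPR brains, against 1.398, 3.83 and 2.96 cpm in control brains (adjusted p = 0.0931 in edgeR and 1.01e-04 in DESeq2). *hoxc6* was above 1 cpm only in control libraries, so it entered the test through the group where it is high. *hoxa5* was 0.502-fold, with all CRISPR libraries below all controls (edgeR adjusted p = 0.182). Markers of tissue around the brain were read too, with muscle markers at 18.8 to 33.8 cpm in CRISPR brains, against 61.6 to 205 cpm in control brains. Epithelial markers, of which 4 of 8 listed symbols were tested, had 512 to 715 cpm in CRISPR brains, against 413 to 478 cpm in control brains. Most of that sum was *krt8.1* (log2 fold change 0.51) and *krt18.1* (0.32), both without overlap. The groups overlapped for *grhl2* (0.26), *epcam* (0.11) and *krt8.2* (-0.71). Other lists with a placode, ganglion or pituitary origin, tissues in which *neurog1* or *neurod1* can also be expressed, had 570 to 643 cpm in CRISPR brains, against 608 to 699 cpm in control brains for cranial ganglia, and 392 to 449 cpm in CRISPR brains, against 498 to 605 cpm in control brains for pituitary. The 3 tested olfactory markers summed to 55.2 to 67.7 cpm in CRISPR brains, against 57.6 to 62.2 cpm in control brains. Most of that sum was *gng13* (log2 fold change 0.16). The other markers, *omp* (-0.85) and *cnga2* (-0.80), had all CRISPR libraries below all controls (edgeR adjusted p = 0.344 and 0.345). Retina and lens markers had 95.3 to 132 cpm in CRISPR brains, against 113 to 128 cpm in control brains. Choroid plexus markers, of which 2 of 4 listed symbols were tested, had 84.6 to 148 cpm in CRISPR brains, against 72.1 to 102 cpm in control brains. Microglia markers, of which 2 of 6 listed symbols were tested, had 20.6 to 28.3 cpm in CRISPR brains, against 12.9 to 18.2 cpm in control brains. Of these, *csf1r* had a log2 fold change of 1.03 without overlap, and *ptprc* one of 0.14 with overlap. Erythrocyte markers had 146 to 415 cpm in CRISPR brains, against 205 to 346 cpm in control brains. The part of these cell types in the values of the 9 genes was not tested.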

How the data were processed

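RNA of 6 brain pools was sequenced as unstranded polyA libraries. The authors used STAR 2.7.3 to align reads to version 9.1 of the XenBase genome and deposited raw counts per gene, raw counts per exon bin made with DEXSeq, and log2 values per gene. A check showed the deposited log2 values to be log2(cpm + 1) of the same counts, to within 5e-09, on 15079 lines of which 3 repeat a model under another symbol. STAR was run in gene annotation mode with default parameters, while the sources used here do not name the gene counter or its strand setting. As the libraries are unstranded, reads of antisense neighbours cannot be told apart. Special counters that name no gene, 5.02% to 5.62% of exon-level counts in no exon and 0.463% to 0.526% ambiguous, were left out.

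Raw counts were tested with edgeR 4.0.16 in R 4.3.3 (TMM factors, quasi-likelihood test, Benjamini-Hochberg adjustment over 15076 genes, threshold 0.05), without covariates. The common biological coefficient of variation was 17.6%. Exon usage was tested with diffSpliceDGE over 214537 bins, in gene models with at least 5 exon-level counts and bins with at least 1. Replicates are separate pools, and none were near-duplicates (chi-square per degree of freedom at least 7.16). Scripts were tested on simulated data.

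The 9 genes, gene lists and tests were chosen with earlier results of these data known. The text names all 9, *dyrk1a*, up to 4 genes of each list with the smallest edgeR p, and the 5 genes closest in pattern. *hey2*, *id2*, *id3*, *id4*, *elavl4*, *hoxc6* and *hoxa5* were named after their values were seen. The values of 1 listed gene are not reported here. Marker lists cover 14 tissues or cell types, and not every listed symbol was tested. Other settings were RLE and upper-quartile factors, DESeq2 1.42.0, no filter, filterByExpr, a replicate block, limma 3.58.1 on the deposited log2 values, other bin filters, and leaving out each library. DESeq2 without each library and other ways of counting the 9 genes were added after seeing the data. Figures were drawn with matplotlib 3.10.9.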

Additional observations from a re-analysis of the deposited data

How the results depend on the processing

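Counts of calls differed between tools. For the 9 genes, edgeR called 0, DESeq2 2 (*myt1* and *sox4*), edgeR without a filter 1 (*myt1*), and DESeq2 with *myt1* counted over bins 2 to 22 called 1. Leaving out single libraries gave 0 to 1 calls, all of them with DESeq2. For the 6 related lists, edgeR called 0, DESeq2 4 (4 also with *myt1* over bins 2 to 22), edgeR without a filter 3, and leaving out single libraries gave 0 to 6. Over all genes, edgeR called 1, DESeq2 295 (293 with *myt1* over bins 2 to 22), edgeR without a filter 180, and leaving out single libraries gave 0 to 513, of which edgeR gave 0 to 9. With the replicate number as a block, edgeR called 3 genes, none among the 9, and that fit changed no call among the 9 genes, the related lists or the exon bins. Same-numbered deviations correlated at -0.11, 0.20 and -0.04, and the highest value was 0.31, for CRISPR replicate 3 with control replicate 1. These values showed no pairing by number, but with 3 libraries a group they cannot exclude it. RLE and upper-quartile factors, filterByExpr and limma on the deposited log2 values called none of the 9 genes, and exon bins of the 9 had 0 calls under every setting run.

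Of the 9 genes, *insm1* alone changed sign, with -0.015 to 0.25 on the log2 scale when single libraries were left out. *dyrk1a* had 0.011 with limma on the deposited log2 values and -0.29 to 0.25 without single libraries, *tcf12* had 0.019 and -0.10 to 0.066, and *tcf3* had -0.10 to 0.73 without single libraries. The causes were not tested. The shallow control replicate 3 limits *atoh1*, *neurog1* and *neurod4* most, and 3 libraries a group do not allow an exact permutation p under 0.1.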

Other observations

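Of the 36 pairs among the 9 genes, 31 had a positive correlation across libraries, and every negative pair held *neurod1*. Over the 6 libraries, which also differ by group and in depth, the 28 pairs without *neurod1* had Pearson correlations of log2 cpm between 0.11 and 0.97, with a median of 0.64, and the highest was *atoh1* with *sox11*. The 8 pairs with *neurod1* lay between -0.49 and 0.55. *insm1* was closer to *neurod1* (0.55) than to *neurog1* (0.11) or *myt1* (0.26), and closest to *sox4* (0.62). A shared group difference enters all these values, and no background of other gene pairs was computed. The mean standardised level of the 9 genes was 0.23, 1.21 and 0.23 in CRISPR replicates 1, 2 and 3, and -0.80, -0.44 and -0.42 in control replicates 1, 2 and 3. CRISPR replicate 2 was thus the highest library, and not CRISPR replicate 3, the lowest on the first principal component. The 5 genes closest to that mean profile over the 6 libraries were *gmeb2* (r = 0.99), *pde3b* (r = 0.99), *esco2* (r = 0.99), *bora* (r = 0.99) and *smc4* (r = 0.98). The cohesion gene *esco2* had 2.74, 5.72 and 2.77 cpm in CRISPR brains and 1.51, 1.54 and 1.90 cpm in control brains. *bora*, an activator of Aurora kinase A, had 1.58, 3.80 and 2.07 cpm in CRISPR brains and 0.728, 0.874 and 0.952 cpm in control brains. The condensin subunit gene *smc4* had 22.6, 27.5 and 23.8 cpm in CRISPR brains and 19.1, 21.4 and 20.7 cpm in control brains. That their CRISPR libraries lie above the controls, with CRISPR replicate 2 the highest, follows from their choice by likeness to this profile, and the same holds for *gmeb2* and *pde3b*. None of the 5 passed in edgeR or DESeq2. *esco2* and *bora* had an unadjusted edgeR p under 0.05, which the choice by this profile favours and which adds no support. *bora* was above 1 cpm only in CRISPR libraries, so it entered the test through the group where it is high.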
